A study of Mus musculus with 6 samples.

Results

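Desmin, vimentin, nestin, synemin, plectin and the nuclear lamins were followed in differentiated primary muscle cultures with and without a muscle knockout of Sfpq, a nuclear RNA-binding protein. The 8 genes, Des, Vim, Nes, Synm, Plec, Lmna, Lmnb1 and Lmnb2, were taken by name from the 34656 genes in the deposited values. All 8 were among the 12461 genes tested. The cultures were started from skeletal muscle of male mice 1 month old, either SfpqSM-KO or control, and both groups were kept for 4 days in 2% horse serum, in which myoblasts fuse into myotubes. There were 3 SFPQ_KO and 3 Cont libraries of polyA RNA. The promoter that drives the deletion, the alleles that the controls carry and whether each library came from its own mouse are stated by none of the sources read for these data. The p-values therefore cover the spread among these libraries alone, part of which may be technical.

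Intermediate filaments are ropes of coiled-coil proteins that give a cell its resistance to stretch. In muscle, desmin forms the lattice that joins neighbouring Z-discs to each other, to the membrane and to the nuclei. Vimentin and nestin are typical of myoblasts and of regenerating fibres, and synemin is a large partner that needs desmin or vimentin to build into filaments. Plectin is the linker that ties the filaments to Z-discs, membrane, mitochondria and the nuclear envelope. The lamins form the meshwork under the inner nuclear membrane. A-type lamins, lamin A and lamin C, come from Lmna, and B-type lamins come from Lmnb1 and Lmnb2. Mutations of DES, PLEC and LMNA cause muscle disease in people.

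All levels are in TPM, transcripts per 1000000 transcripts, which the authors computed and which is scaled for transcript length, so that levels of different genes can be set side by side. Read depth cannot be recovered from TPM and is unknown here. Each of the 8 genes had 1 row in the deposited values, under the accession of 1 transcript, whereas the RefSeq table lists 15 transcripts for Plec, 3 each for Synm and Lmna and 2 for Lmnb2. No label or file header states whether such a value covers the whole gene or that transcript alone. The levels of these 4 genes, and their places in the order of level, are those of the deposited row, and lamin A and lamin C have no separate values. Sfpq itself stood at 18.3, 19.3 and 14.1 TPM in the SFPQ_KO libraries and at 48.6, 60.5 and 49.9 TPM in the Cont libraries. Each SFPQ_KO library thus held less Sfpq RNA than each Cont library. Its difference in log2(TPM + 1) was −1.57 with an adjusted p of 0.0531 in limma, so Sfpq itself did not pass the threshold of 0.05. The cultures were muscle by the actin gene Acta1, at 22816 to 34413 TPM. Summed markers of endothelial cells stayed at or under 0.451 TPM in each library, those of macrophages at or under 2.02, of Schwann cells at or under 3.22 and of adipocytes at or under 0.124. The macrophage genes Ptprc and Adgre1 were listed at 0 in each library. In bulk samples, fewer cells of a type and less RNA per cell cannot be told apart.

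The sequences just upstream of Des and Synm are printed because the deposited levels of these partner genes had the same high and low libraries: SFPQ_KO replicates 1 and 3 were the highest and Cont replicate 2 the lowest for both. The bases are the 250 before each gene start, from the RefSeq promoter table of GRCm38.p6, which holds 6 of the 8 genes. They read 5′ to 3′ on the gene's own strand, chr1:75360042-75360291 on the plus strand for Des and chr7:67759743-67759992 on the minus strand for Synm. Capitals mark each E-box, CANNTG with N any base, searched on both strands with each place counted once. MyoD-family factors bind some forms of this pattern, and the marked stretches were not sorted by their middle letters.
Des: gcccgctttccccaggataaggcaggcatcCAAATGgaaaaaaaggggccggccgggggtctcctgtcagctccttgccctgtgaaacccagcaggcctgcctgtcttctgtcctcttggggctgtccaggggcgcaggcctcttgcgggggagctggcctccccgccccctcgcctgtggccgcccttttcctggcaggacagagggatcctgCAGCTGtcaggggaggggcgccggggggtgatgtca
Synm: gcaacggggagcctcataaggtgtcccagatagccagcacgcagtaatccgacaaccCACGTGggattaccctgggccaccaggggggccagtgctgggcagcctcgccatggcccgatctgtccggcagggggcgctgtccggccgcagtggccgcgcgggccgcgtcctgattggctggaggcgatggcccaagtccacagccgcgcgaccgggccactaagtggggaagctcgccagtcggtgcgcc
Des held 2 E-boxes, 220 and 36 bases before the start, and Synm held 1, 193 bases before it. At least 1 was present in 66.2% of 32851 promoter windows of the same length, and at least 2 in 31.8%. The E-box was therefore common in such windows. The GC box GGGCGG was found 2 times upstream of Des and 0 times upstream of Synm, and 32.7% of windows held it. Neither window held TATAAA, a CArG box or a MEF2 site by their usual letters, which 12.4%, 1.5% and 2.9% of windows held. A match is a description of the letters and not a measured binding site.

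Desmin dominated the cytoplasmic filament genes in every library, and its level was above control in each knockout library. Des (chromosome 1, 75360292 to 75368579, 8.3 kb) was at 6772, 5744 and 7131 TPM in the SFPQ_KO libraries and at 5190, 5082 and 5575 TPM in the Cont libraries. The groups did not overlap, although the lowest knockout library lay close to the highest control. The mean was 1.24 times that of control. The difference in log2(TPM + 1) was 0.30 (SE 0.14, 95% interval −0.02 to 0.63) and did not pass in limma (adjusted p = 0.430, 3 against 3). Groups that did not overlap with SFPQ_KO higher were found for 4.27% of all genes tested, and for 9.93% after median-of-ratios scaling between libraries. The span of Des overlaps Gm15179, an antisense transcript on the other strand, whose reads may not be told apart from those of Des. Des ranked 15 among all genes tested by mean TPM, and it made up 82.9% to 91.1% of the summed TPM of Des, Vim, Nes and Synm.

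**Figure D1:**
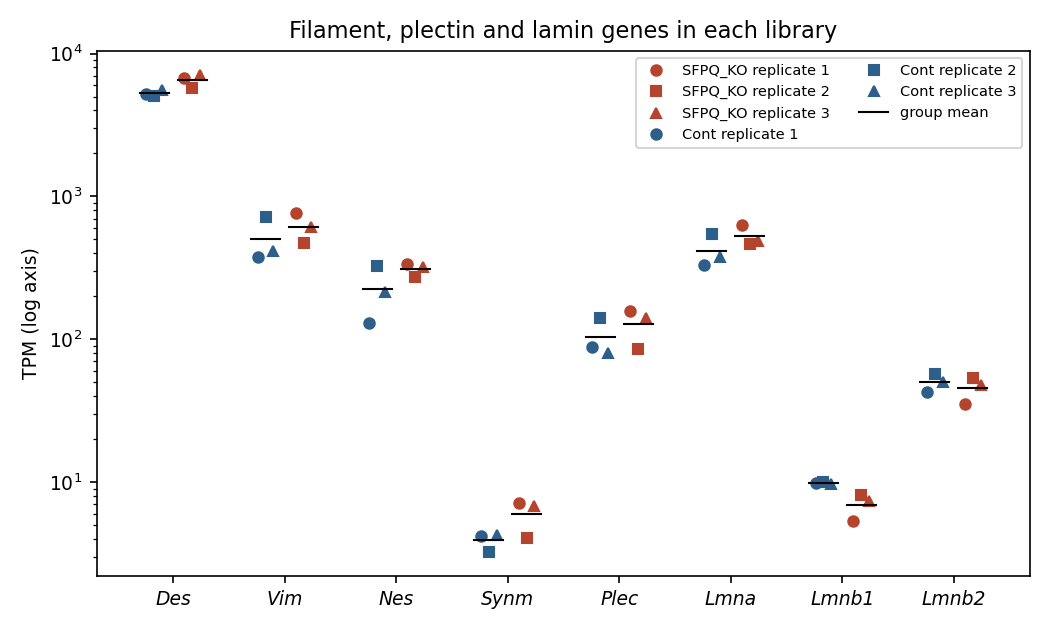
TPM (log axis) of the 8 genes in each of the 6 libraries; red symbols are SFPQ_KO, blue symbols Cont, the symbol shape gives the replicate number and black bars are group means. Des lies at 5082 TPM or more in each library, the groups of Des and Lmnb1 do not overlap, and Cont replicate 2 lies with the SFPQ_KO libraries for Vim, Nes, Plec and Lmna.

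Synemin largely followed desmin from library to library at a far lower level. SFPQ_KO replicate 2 lay above every control for Des but not for Synm. Synm (chromosome 7, 67730161 to 67759742) was at 7.17, 4.05 and 6.84 TPM in the SFPQ_KO libraries and at 4.22, 3.25 and 4.25 TPM in the Cont libraries. SFPQ_KO replicate 2 lay within the control range and the other 2 knockout libraries lay above it. The log2 difference was 0.49 (SE 0.21, 95% interval −0.01 to 1.00) and did not pass in limma (adjusted p = 0.417). Without SFPQ_KO replicate 2 it was 0.71 (adjusted p = 0.203) and the groups did not overlap, as for 8.69% of all genes tested in that setting with SFPQ_KO higher. The protein-coding gene Ttc23 overlaps Synm on the opposite strand, and no source states whether counting used strand, so the Synm values may hold reads of Ttc23. The Synm to Des ratio was 0.000908 ± 0.000183 in SFPQ_KO and 0.000738 ± 8.97e-05 in Cont (SD, n = 3; exact 2-sided permutation p = 0.300).

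The myoblast filaments vimentin and nestin differed between the group means by less than the SD of the control libraries. Vim (chromosome 2, 13574311 to 13582826) was at 768, 471 and 609 TPM in the SFPQ_KO libraries and at 376, 717 and 415 TPM in the Cont libraries. SFPQ_KO replicate 1 and Cont replicate 2 were the highest, while the other 2 controls lay below every knockout library. The log2 difference was 0.33 (95% interval −0.35 to 1.00, limma adjusted p = 0.666). Nes (chromosome 3, 87971093 to 87980451) was at 335, 273 and 319 TPM in the SFPQ_KO libraries and at 130, 327 and 214 TPM in the Cont libraries. Nestin was thus even across the knockout libraries, with a coefficient of variation of 10.4%, and uneven across the controls, at 44.1%. Its log2 difference of 0.56 (SE 0.31, 95% interval −0.18 to 1.29) did not pass in limma (adjusted p = 0.503). Cont replicate 2 again lay among the knockout libraries.

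Plectin, the linker, showed a library pattern close to that of vimentin. Plec (chromosome 15, 76170974 to 76231378, 60.4 kb) was at 158, 85.8 and 141 TPM in the SFPQ_KO libraries and at 88.3, 141 and 80.0 TPM in the Cont libraries. SFPQ_KO replicate 2 was as low as the 2 low controls, and Cont replicate 2 was as high as SFPQ_KO replicate 3. The log2 difference was 0.31 (95% interval −0.38 to 1.00, limma adjusted p = 0.688). Without SFPQ_KO replicate 2 it was 0.58 (limma adjusted p = 0.398). The protein-coding gene Parp10 overlaps the Plec span on the same strand, so reads there may be shared. The Plec to Des ratio was 0.0193 ± 0.00421 in SFPQ_KO and 0.0197 ± 0.00704 in Cont (SD, n = 3; exact permutation p = 1.00).

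**Figure D2:**
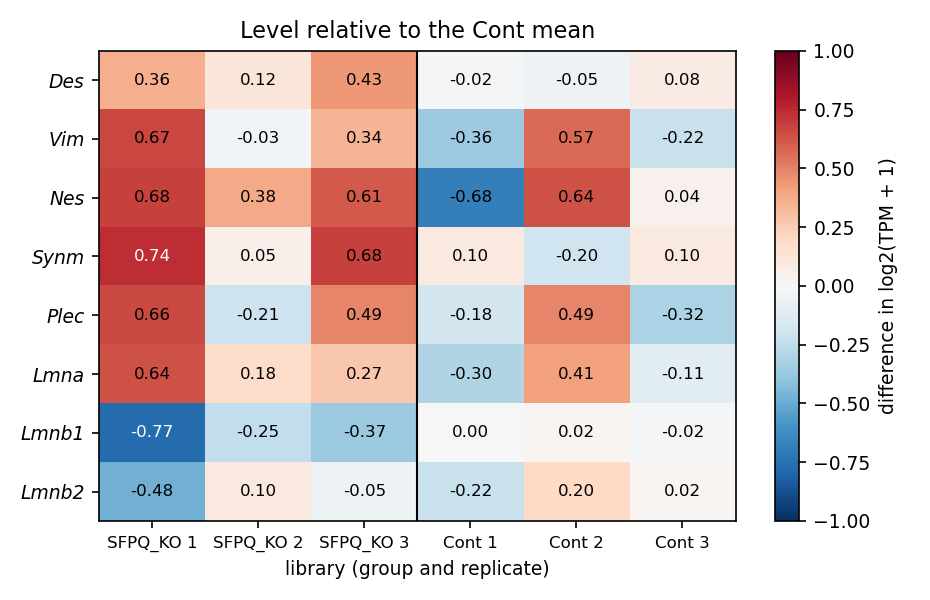
Difference in log2(TPM + 1) of each library from the mean of the 3 Cont libraries, for the 8 genes (rows) in the 6 libraries (columns); red is above and blue below the Cont mean. SFPQ_KO replicate 1 holds values of 0.64 to 0.68 for Vim, Nes, Plec and Lmna, and Cont replicate 2 holds 0.41 to 0.64 for these genes, while Lmnb1 is below the Cont mean in each SFPQ_KO library.

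Cont replicate 2 stood well above the other controls for Vim, Nes, Plec and Lmna. It was the highest control for 6 of the 8 genes, Vim, Nes, Plec, Lmna, Lmnb1 and Lmnb2, and the lowest for Des and Synm. The margin was small for Lmnb1, at 9.94 against 9.83 and 9.64 TPM, and for Des, at 5082 against 5190 and 5575 TPM. SFPQ_KO replicate 2 was the lowest knockout library for 6 of the 8. Without Cont replicate 2 the log2 differences were 0.88 for Nes (unadjusted p = 0.00793, adjusted p = 0.193), 0.61 for Vim (unadjusted p = 0.0268, adjusted p = 0.268), 0.57 for Lmna (unadjusted p = 0.0128, adjusted p = 0.215) and 0.56 for Plec (adjusted p = 0.366) in limma. The groups of Nes, Vim and Lmna then did not overlap, in a setting where 12.3% of all genes tested were separated with SFPQ_KO higher. Without Cont replicate 1 the same differences were 0.22 for Nes, 0.15 for Vim and 0.21 for Lmna, and without SFPQ_KO replicate 1 that of Plec was 0.14 and that of Vim 0.15. Other genes moved with this library as well. The summed TPM of 9 myoblast and satellite cell genes was 1179 in Cont replicate 2, against 722 and 959 in the other controls and 1027 to 1130 in the SFPQ_KO libraries. Most of this sum came from Myod1 and Cdh15, at 619 and 335 TPM there. Others of the list went the other way, with Myf5 at 33.2 TPM in Cont replicate 2 against 39.9 and 35.4 TPM, and Vcam1 at 8.85 against 9.25 and 10.9 TPM. Genes of differentiated myotubes were mixed as well. Their sum was lowest in this library, at 67784 TPM against 76554 and 73872 in the other controls. Mb was at 12311 TPM there against 13814 and 17902, and Myl1 at 6446 TPM against 12675 and 8106. Acta1 was above the other controls, at 25651 TPM against 22816 and 24810. So were the fusion gene Mymk, at 2189 TPM against 1469 and 1470, and Mymx, also a fusion gene, at 125 TPM against 36.0 and 34.9. Cav3, the muscle caveolin, was at 994 TPM against 487 and 540. Acta2, a smooth muscle actin that myoblasts also make, was at 1166 TPM there, against 503 and 651 TPM in the other controls. The summed fibroblast markers did not single it out among the controls, at 302 TPM against 206 and 305. The part of culture makeup in these differences was not tested.

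**Figure D3:**
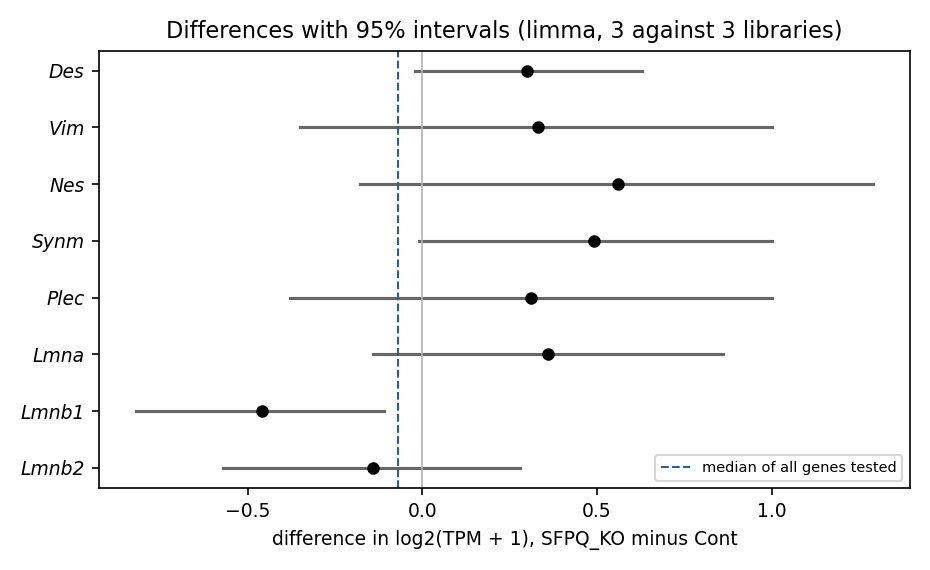
Difference in log2(TPM + 1), SFPQ_KO minus Cont, for the 8 genes, with 95% intervals from limma (3 against 3 libraries); the dashed line is the median of all genes tested, −0.07. The 5 filament and plectin genes and Lmna lie between 0.30 and 0.56 with intervals that include 0, and the interval of Lmnb1 (−0.82 to −0.11) does not.

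Among the nuclear lamins the A-type gene had a mean above control and both B-type genes had means below it, and none of the 3 passed the test. The A-type gene Lmna (chromosome 3, 88481148 to 88509932) was at 635, 463 and 490 TPM in the SFPQ_KO libraries and at 330, 542 and 378 TPM in the Cont libraries. All knockout libraries lay above Cont replicates 1 and 3, and Cont replicate 2 lay above 2 of them. The log2 difference was 0.36 (SE 0.21, 95% interval −0.14 to 0.86, limma adjusted p = 0.517). Lmnb1 (chromosome 18, 56707813 to 56753424), a B-type lamin that is abundant in dividing cells, was at 5.34, 8.06 and 7.34 TPM in the SFPQ_KO libraries and at 9.83, 9.94 and 9.64 TPM in the Cont libraries. The SD of the controls was 0.155 TPM and every knockout library lay below them. The log2 difference was −0.46 (SE 0.15, 95% interval −0.82 to −0.11), with an unadjusted p of 0.0184 and an adjusted p of 0.324 in limma, so it did not pass. Separation in this direction was common: 15.3% of all genes tested had groups that did not overlap with SFPQ_KO lower, and 8.61% after median-of-ratios scaling. Lmnb2 (chromosome 10, 80901363 to 80918245), the other B-type gene, was at 35.5, 53.2 and 47.8 TPM in the SFPQ_KO libraries and at 42.5, 57.4 and 50.4 TPM in the Cont libraries. These groups overlapped and the log2 difference was −0.14 (95% interval −0.57 to 0.28, limma adjusted p = 0.761), which turned to 0.02 without SFPQ_KO replicate 1.

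The makeup of the lamina RNA was compared within each library, which removes the scaling between libraries. Lmna made up 94.0%, 88.3% and 89.9% of the summed lamin TPM in the SFPQ_KO libraries and 86.3%, 89.0% and 86.3% in the Cont libraries. The ratio of Lmna to the sum of Lmnb1 and Lmnb2 was 15.6, 7.56 and 8.88 in SFPQ_KO against 6.32, 8.05 and 6.30 in Cont. SFPQ_KO replicate 1 stood far above the rest and the exact permutation p was 0.2 (adjusted p = 0.600 over 6 ratios). The Lmnb1 to Lmnb2 ratio was 0.151, 0.152 and 0.153 in the SFPQ_KO libraries, nearly identical, and 0.231, 0.173 and 0.191 in the Cont libraries. The knockout ratios were all below the controls, with a log2 difference of −0.38 and an exact permutation p of 0.1, the smallest that 3 against 3 can give (adjusted p = 0.600 over 6 ratios). Neither cytoplasmic ratio separated the groups. Des to Vim was 10.9 ± 1.83 in SFPQ_KO and 11.4 ± 3.78 in Cont, and Des to Nes was 21.2 ± 1.09 and 27.2 ± 12.2 (SD, n = 3; exact permutation p = 1.00 and p = 0.7).

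**Figure D4:**
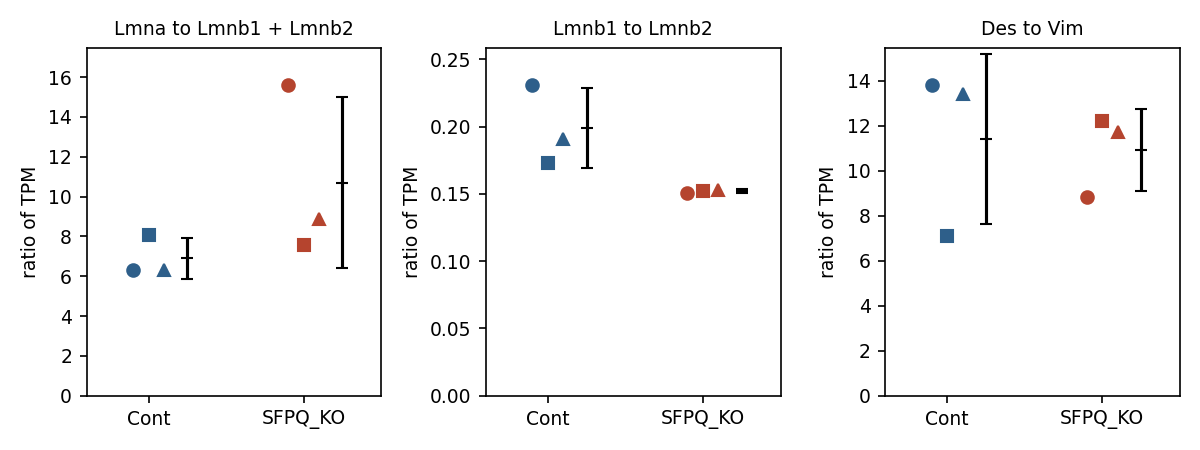
Ratios of TPM within each library for 3 pairs: Lmna to the sum of Lmnb1 and Lmnb2, Lmnb1 to Lmnb2, and Des to Vim; symbols are replicates 1 (circle), 2 (square) and 3 (triangle), and the black marks are group means with SD (n = 3). The Lmnb1 to Lmnb2 ratio is 0.151 to 0.153 in SFPQ_KO, below each Cont library (0.173 to 0.231), while the groups overlap in the other 2 ratios.

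The summed TPM of proliferation genes was low in the libraries where Lmnb1 was low. Of 11 tested genes of the cell cycle, 11 had lower values in SFPQ_KO, with a median log2 difference of −0.69 against −0.07 for all genes tested. Of all 12461 genes tested, 8038 had values below 0 and 4423 above. The list median was −0.29 with a pseudocount of 5 and −1.02 with 0.1, since most of these genes are low. Limma called 0 of them. At an unadjusted p under 0.05 there were 4 of 11 lower, beside 9.62% of all genes tested, and 6 of 11 had groups that did not overlap with SFPQ_KO lower, beside 15.3% of all genes tested. Their summed TPM, over 12 listed genes, was 75.4 to 95.6 in the SFPQ_KO libraries and 102 to 123 in the Cont libraries. SFPQ_KO replicate 1, the library with the lowest Lmnb1, also had the lowest sum, followed for both by replicate 3 and then replicate 2. Pcna, the largest part of that sum, ran in the reverse order, at 40.5, 37.8 and 36.1 TPM in SFPQ_KO replicates 1, 3 and 2. In the same libraries Rrm2 was at 15.0, 14.1 and 23.2 TPM and Mcm2 at 11.4, 15.1 and 13.6 TPM. Without SFPQ_KO replicate 1 the log2 difference of Lmnb1 was −0.31 (limma adjusted p = 0.612). The part of dividing cells in the level of Lmnb1 was not tested.

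In order of level the genes ran Des, Vim, Lmna, Nes, Plec, Lmnb2, Lmnb1 and Synm by mean over the 6 libraries, from 5916 down to 4.96 TPM. Des was 10.58 times as high as Vim, and the order of each neighbouring pair down to Lmnb1 held in 6 of 6 libraries. Lmnb1 lay above Synm in 5 of 6. Over all libraries the ranges of Vim and Lmna, Lmna and Nes, Nes and Plec, and Lmnb1 and Synm overlapped, whereas those of Des and Vim, Plec and Lmnb2, and Lmnb2 and Lmnb1 did not. Over all 8 genes limma called 0 higher and 0 lower at an adjusted p under 0.05 (1 lower at an unadjusted p under 0.05, Lmnb1), as for all 12461 genes, of which 0 (0%) were called higher and 0 (0%) lower. At an unadjusted p under 0.05, 2.68% of all genes tested were higher and 9.62% lower, and after median-of-ratios scaling 6.32% and 5.31%. The 8 genes had 6 values above 0 and 2 below, with a median log2 difference of 0.32, where all genes had a median of −0.07. Of all 12461 genes tested, 4423 had values above 0 and 8038 below.

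The partners of the lamins at the nuclear envelope were mostly near equal, apart from Mlip. Limma called 0 of 21 tested members (2 lower and 0 higher at an unadjusted p under 0.05, beside 9.62% and 2.68% of all genes tested). Among them 11 values lay above 0 and 10 below, beside 4423 and 8038 of all 12461 genes tested. The median log2 difference was 0.00. Mlip, which encodes a muscle protein that binds lamin A and C (chromosome 9, 77102084 to 77352782, 250.7 kb), was at 31.8, 47.4 and 38.9 TPM in the SFPQ_KO libraries and at 81.9, 81.4 and 80.8 TPM in the Cont libraries. The controls were tightly grouped and each knockout library was far below them. The log2 difference was −1.05 (SE 0.14), with an unadjusted p of 0.000190 and an adjusted p of 0.0938 in limma, so it came near the threshold without passing. Tmem201, an inner nuclear membrane protein of the lamin and LINC network, was at 16.6 ± 0.867 and 20.1 ± 0.777 TPM in SFPQ_KO and Cont (adjusted p = 0.336). Tor1aip2, a cofactor of the torsin ATPase, was at 26.0 ± 2.22 and 30.3 ± 1.37 TPM (SD, n = 3; limma adjusted p = 0.414), and its span overlaps Tor1aip1 on the opposite strand. Lbr, the lamin B receptor, was at 13.5 ± 2.12 and 16.1 ± 1.24 TPM (adjusted p = 0.497). The enzymes that farnesylate and trim the lamins were near equal: limma called 0 of 5 (0 at an unadjusted p under 0.05), with the farnesyltransferase subunits Fnta at 89.4 ± 7.23 and 97.5 ± 2.14 TPM and Fntb at 22.9 ± 1.38 and 25.5 ± 2.10 TPM. Of the later steps, the methyltransferase Icmt was at 32.9 ± 2.62 and 29.3 ± 1.62 TPM and the protease Rce1 at 20.3 ± 1.73 and 19.5 ± 0.439 TPM.

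**Figure D5:**
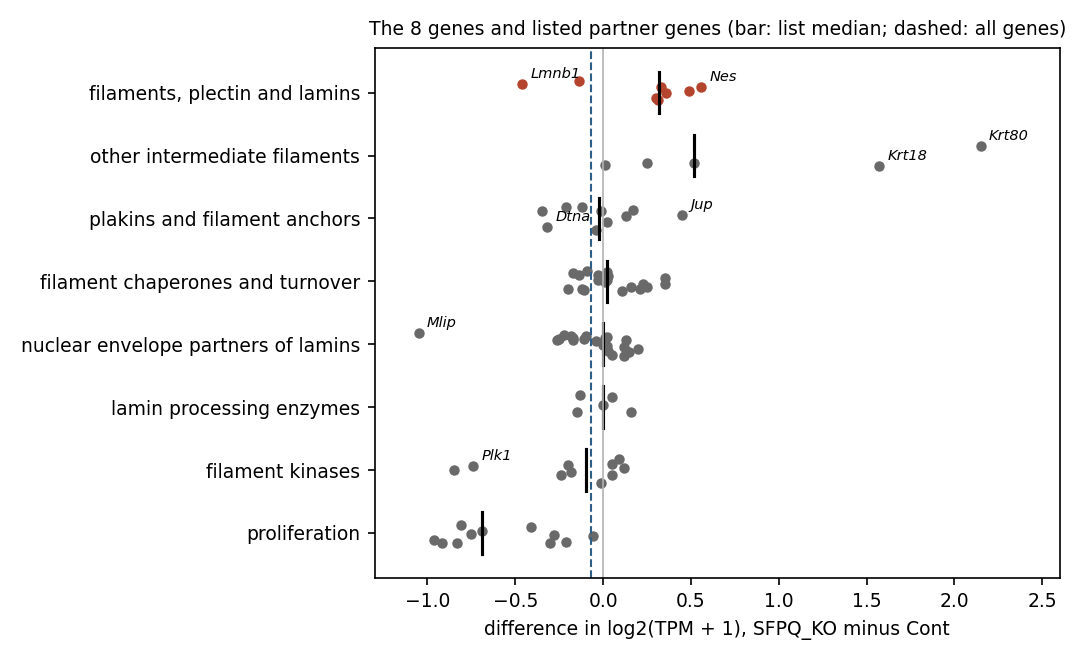
Difference in log2(TPM + 1), SFPQ_KO minus Cont, of each tested gene in the 8 filament, plectin and lamin genes (red) and in 7 lists of partner genes (grey); black bars are list medians and the dashed line is the median of all genes tested (−0.07). Mlip, at −1.05, stands apart from the other nuclear envelope partners, and the keratins Krt80 and Krt18 lie on the higher side at 2.15 and 1.57. The proliferation genes lie below 0, down to −0.96 for Ccna2.

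Among the other intermediate filament genes the keratins Krt80 and Krt18 had the highest differences, and Krt8 and Krt19 had groups that overlapped. Only 5 of 14 were tested, since 8 were under 1 TPM in each library and 1, Nefm, passed 1 TPM in a single library. Limma called 0 of the 5 (2 higher at an unadjusted p under 0.05, beside 2.68% of all genes tested). All 5 values lay above 0, as did 4423 of all 12461 genes tested. Sync, the highest of the 5 in TPM, was near equal, at 199 ± 30.1 TPM in SFPQ_KO and 199 ± 45.5 TPM in Cont. Its log2 difference was 0.01 (limma adjusted p = 0.986). Krt80 (chromosome 15, 101348315 to 101370162) was at 27.4, 21.7 and 11.9 TPM in the SFPQ_KO libraries and at 2.95, 6.84 and 2.07 TPM in the Cont libraries, a log2 difference of 2.15 (SE 0.42, limma adjusted p = 0.161). Krt18, a keratin of simple epithelia (chromosome 15, 102028216 to 102032026), was at 14.3, 38.3 and 11.8 TPM against 5.04, 3.66 and 9.44 TPM, a log2 difference of 1.57 (SE 0.48, limma adjusted p = 0.305). Both of these keratins had groups that did not overlap with SFPQ_KO higher, as for 4.27% of all genes tested (9.93% after median-of-ratios scaling), and both varied by a few fold within a group. Krt8, the usual partner of Krt18, was at only 1.49 ± 0.540 and 0.750 ± 0.496 TPM (log2 difference 0.52, limma adjusted p = 0.469). Krt19 was at 8.53 ± 6.16 and 6.61 ± 4.32 TPM (SD, n = 3; log2 difference 0.25, limma adjusted p = 0.885), and its difference turned to −0.24 without SFPQ_KO replicate 2 and to −0.17 without Cont replicate 2.

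The anchors and chaperones of the filaments gave no common direction. Of 10 tested plakin and anchor genes limma called 0, and the median log2 difference was −0.03. At an unadjusted p under 0.05 there were 2 lower, beside 9.62% of all genes tested. Dtna, the dystrobrevin that binds synemin at the membrane, was at 71.6, 60.5 and 79.6 TPM in SFPQ_KO and at 88.4, 88.9 and 86.4 TPM in Cont (log2 difference −0.32, limma adjusted p = 0.342). Neb, the giant nebulin that meets desmin at the Z-disc, was at 166 ± 20.0 and 213 ± 34.0 TPM (adjusted p = 0.403), and Jup, plakoglobin, at 244 ± 39.1 and 182 ± 50.1 TPM (adjusted p = 0.450). Mtm1, myotubularin, which binds desmin, was at 5.43 ± 0.471 and 5.97 ± 0.232 TPM (SD, n = 3; limma adjusted p = 0.688). Of 19 genes for filament chaperones and turnover limma called 0, and the median was 0.02. At an unadjusted p under 0.05 there was 1 higher, beside 2.68% of all genes tested. The small heat shock proteins Hspb1, at 463 ± 39.3 and 364 ± 56.0 TPM, Hspb2, at 487 ± 60.0 and 386 ± 76.0 TPM, and Hspb3, at 162 ± 23.2 and 140 ± 13.8 TPM, had the smallest p of that list together with Dnajb6, the desmin co-chaperone, at 49.8 ± 3.94 and 41.8 ± 4.22 TPM (limma adjusted p 0.366 to 0.563). Of 10 kinases that act on filaments or lamins limma called 0, with a median of −0.10. At an unadjusted p under 0.05 there were 2 lower, beside 9.62% of all genes tested. These 2 were the mitotic kinases Plk1, at 1.91 ± 0.717 and 3.77 ± 0.645 TPM, and Aurkb, at 1.43 ± 0.906 and 3.20 ± 0.576 TPM. Prkca, a protein kinase C, was at 4.93 ± 0.544 and 5.80 ± 0.672 TPM.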

How the data were processed

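The authors deposited TPM, with 1 row per RefSeq accession, and each library sums to 1000000. The submitters' processing notes name STAR 2.4.1d as aligner and mm10 as genome. The counter, the annotation release and any use of strand: not given in the sources used here. Of 34671 accessions, 30822 were named through a RefSeq table of GRCm38.p6 and 103 through GENCODE, and 3746 kept their accession. TPM was summed per gene. Coordinates are 1-based from the RefSeq table, overlaps from GENCODE.

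The test covered genes that reached a TPM of 1 in 3 or more libraries. It was run in R 4.3.3 with limma 3.58.1 on log2(TPM + 1) (trend, 2-sided, Benjamini-Hochberg over all 12461 genes, threshold 0.05), which understates differences of low genes. Ratios were tested by exact permutation over the 6 libraries (SciPy 1.17.1). The planned tests of transcripts and of transcript shares were not run, since each gene had 1 accession. On simulated data with 12461 genes and the spread of this comparison, limma found 69.0% of 100 genes given a log2 change of 1, 92.0% of 100 given 2, and 10 unchanged genes. The simulated noise was drawn independently for each gene, whereas many real genes moved together across libraries, so these shares may not hold for the real data. The Benjamini-Hochberg cut-off also loosens as more genes change, and 0 genes were called in the real data. The shares are therefore not the chance of finding such a change here.

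The members and lists were chosen with earlier results of these data known. The text names the 8 genes, up to 4 genes of each partner list with the smallest p, up to 3 marker genes per cell type with the highest mean TPM, the 3 genes most alike to Des, Vim, Nes and Lmna, and Sfpq. A filament kinase that this rule names is not reported here. Ptprc, Adgre1, Lum, Nefm, Sync, Myf5, Vcam1, Mymk, Mymx, Cav3 and the pair of promoters printed were chosen after their values were seen. Itga7 and Postn, from the marker lists, were not analysed here.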

Additional observations from a re-analysis of the deposited data

How the results depend on the processing

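The 8 genes were refitted under 15 alternatives (14 for Synm, which is left out by a mean TPM of at least 5): pseudocounts of 0.1 and 5, other filters, median-of-ratios and quantile scaling, robust moderation or no trend in limma, the replicate block, and each library left out. None of the 8 was called under any of these. For Des, Vim, Nes, Synm, Plec, Lmna and Lmnb1 the sign held in each, and that of Lmnb2 turned without SFPQ_KO replicate 1 (0.02). With 1 library left out the log2 difference ran from 0.24 to 0.40 for Des, 0.15 to 0.61 for Vim, 0.22 to 0.88 for Nes, 0.37 to 0.71 for Synm, 0.14 to 0.58 for Plec, 0.21 to 0.57 for Lmna, −0.57 to −0.31 for Lmnb1 and −0.26 to 0.02 for Lmnb2. Over all genes 13 were called with a pseudocount of 5, 7 with a mean TPM of at least 5 and 2 without the trend, against 0. Sfpq passed under the first 2 of these (−1.39 and −1.57).

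The replicate block called 0 of all genes, and the log2 difference of Des stayed at 0.30 (adjusted p = 0.627). Same-numbered libraries did not deviate together (correlations −0.26, −0.25 and 0.05 over genes), and differently numbered ones ran from −0.27 to 0.41. With 3 libraries per group this cannot show whether the numbers pair them.

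Ratios near 0 turned with single libraries left out: Des to Vim (main log2 difference −0.02) ran from −0.34 to 0.15, Des to Nes (−0.25) from −0.60 to 0.08 and Plec to Des (0.01) from −0.19 to 0.29. Among other genes named, signs turned for Acta2 (−0.27 to 0.33 with 1 library left out; 0.07, 0.02, 0.09 and 0.33 after median-of-ratios scaling, after quantile normalization, without SFPQ_KO replicate 3 and without Cont replicate 2), Krt19 (−0.24 to 0.81; −0.24 and −0.17 without SFPQ_KO replicate 2 and Cont replicate 2), Mb (0.03), Myl1 (−0.01, −0.19 and −0.02) and Notch3 (−0.42 to 0.09; 0.04 and 0.09 where it turned), the last 3 with 1 library left out. The cause was not tested. Mlip kept its sign in all 15 alternatives, from −1.19 to −0.91 with 1 library left out (adjusted p 0.0837 to 0.389 over all).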

Other observations

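The genes whose levels followed the filament genes most closely over the 6 libraries were searched among 7919 genes with a mean TPM of at least 10, as a description with no test, since libraries share their scaling and 6 points allow many close matches. For Lmna the 3 most alike by Pearson correlation of log2(TPM + 1) were Tmem183a, Myh3 and Wdr77, and 93 genes reached 0.95 or more. Myh3, the embryonic myosin heavy chain, stood at 4476, 3377 and 3335 TPM in the SFPQ_KO libraries and at 2094, 3774 and 2596 TPM in the Cont libraries, the same order of groups and of Cont replicate 2 as for Lmna. For Nes they were Hes6, Psmd10 and Gm15867, of 92. Hes6, a transcriptional regulator that takes part in myoblast differentiation, stood at 519, 440 and 492 TPM in the SFPQ_KO libraries and at 201, 474 and 333 TPM in the Cont libraries. For Vim they were Ubtd1, Selenos and Rnf187, of 110. For Des, whose pattern few genes shared, they were Zfp622, Ccdc84 and Zcchc17, of 8.

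Differentiation genes other than filaments pointed in both directions. Of 12 tested myotube genes limma called 0 (0 at an unadjusted p under 0.05), with 8 values above 0 and 4 below and a median log2 difference of 0.15. Of all 12461 genes tested, 4423 had values above 0 and 8038 below. Besides Acta1, with a mean of 30842 ± 3210 TPM in SFPQ_KO and 24426 ± 1456 TPM in Cont, myoglobin, Mb, was at 13409 ± 2350 and 14676 ± 2893 TPM, and the fast light chain Myl1 at 8890 ± 385 and 9076 ± 3225 TPM. Of 8 tested myoblast and satellite cell genes limma called 0, with 2 values above 0 and 6 below and a median of −0.33. At an unadjusted p under 0.05 there was 1 lower, beside 9.62% of all genes tested. The 1 lower was Myf5, at 23.5 ± 10.8 TPM in SFPQ_KO and 36.2 ± 3.42 TPM in Cont (limma adjusted p = 0.394). The 2 with values above 0 were Myod1 and Cdh15. Myod1 was at 589 ± 18.4 and 466 ± 176 TPM, Cdh15, M-cadherin, at 301 ± 56.4 and 260 ± 70.1 TPM, and Sdc4 at 98.4 ± 13.6 and 120 ± 17.8 TPM (SD, n = 3). Limma called 0 of 5 tested fibroblast markers, and 2 were lower at an unadjusted p under 0.05, beside 9.62% of all genes tested. Of these 5 markers, 1 had a value above 0 and 4 had values below. Their sum over 9 genes was 171 to 226 TPM in SFPQ_KO and 206 to 305 TPM in Cont, of which Col3a1 held most, at 160 ± 24.7 and 205 ± 43.0 TPM, and Col1a1 was at 15.9 ± 7.84 and 47.4 ± 24.9 TPM. Ly6a, the 1 with a value above 0, was at 12.0 ± 4.26 and 8.78 ± 2.59 TPM (log2 difference 0.38, limma adjusted p = 0.632). The fibroblast marker Lum was listed at 0 in 5 of 6 libraries. Of 4 tested smooth muscle and pericyte markers limma called 0 (0 at an unadjusted p under 0.05), with Acta2 at 725 ± 104 and 773 ± 348 TPM, Notch3 at 23.2 ± 5.88 and 26.9 ± 9.90 TPM and Cspg4 at 13.3 ± 4.69 and 7.89 ± 4.19 TPM.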
